A study of Mus musculus with 58 samples.

Results

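The 18 single long-term hematopoietic stem cells (LT-HSC) numbered 17 to 34 were split by a cell cycle score into the 9 highest and the 9 lowest. The score was the summed count of 12 genes per 10000 counts of the cell. The genes were Mki67, Top2a, Mcm2 to Mcm7, Pcna, Cdk1, Ccnb2 and Tpx2. These 18 cells are part of 58 single cells in the series, which holds 34 LT-HSC and 24 common myeloid progenitors (CMP). All cells came from bone marrow of wild-type C57BL/6 mice, and the labels also give a passage range of 8-10 and no treatment, time or age. LT-HSC were sorted as Lin- cKit+ Sca1+ cells without Flt3 and CD34, and CMP as Lin- cKit+ CD34+ cells without Sca1 and CD16/32. Each cell was picked by hand and its RNA was read from the 3' end by a modified Smart-seq2 protocol with cell barcodes and molecular identifiers. No label names an animal or a culture, so each group is 1 sample made of several cells, and no p-value was computed. The range 17 to 34 is a run of cell numbers that no label sets apart. Cells were placed in the groups by their own counts, so every difference between the groups is a description and carries no test.

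A cell that prepares to divide first loads the MCM helicase onto its DNA in G1, copies its genome in S phase with Pcna as the sliding clamp of the polymerases, and then makes the cyclins, kinesins and kinetochore proteins of mitosis. The E2F factors switch on the replication genes around the G1 to S transition, and the DREAM complex, B-Myb and FOXM1 govern the later set through promoter elements named CHR. LT-HSC are known as the most quiescent cells of the blood system, and cycling in them is usually accompanied by a shift toward multipotent and lineage-restricted progenitors.

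The 9 high-score cells had scores from 19.7 to 30.9 with a median of 24.5, and the 9 low-score cells had scores from 0.315 to 12.45 with a median of 4.95. The lowest cell of the high group, LT-HSC 34, stood at 19.7, and the highest cell of the low group, LT-HSC 24, stood at 12.45. In the 16 LT-HSC numbered 1 to 16 the score ran from 0.983 to 23.6 with a median of 4.06, and in the 24 CMP it ran from 11.7 to 48.6 with a median of 26.6. The low-score cells thus had a median near that of LT-HSC 1 to 16, and the high-score cells one near that of the CMP. In cells 1 to 16 only LT-HSC 15, at 23.6, lay inside the range of the high-score cells.

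Depth moved with the score. The high-score cells held 117604 to 860553 counts each, with a median of 517878, and the low-score cells 45022 to 323899, with a median of 222475. The summed counts, 4659959 against 1861023, differed 2.50-fold. Across the 18 cells, which are not independent replicates, the score and the total count had a Pearson correlation of 0.64 and a Spearman correlation of 0.546. When every cell was thinned at random to 117604 counts, which left out LT-HSC 19 and LT-HSC 25, the same 9 cells had the highest scores. Random thinning leaves the expected score of a cell unchanged, so this cannot show whether the split depends on depth. The lowest thinned score of a high-score cell was 17.9 and the highest of a low-score cell was 12.9. Genes with a count numbered a median of 4889 in the high-score and 3396 in the low-score cells before thinning, and 3640 and 3068 after it. The part that depth plays in single-gene differences was not tested. Where the median of a list moved by more than the spread between cells in the cells of overlapping depth (100000 to 550000 counts), that value is given beside it.

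**Figure D1:**
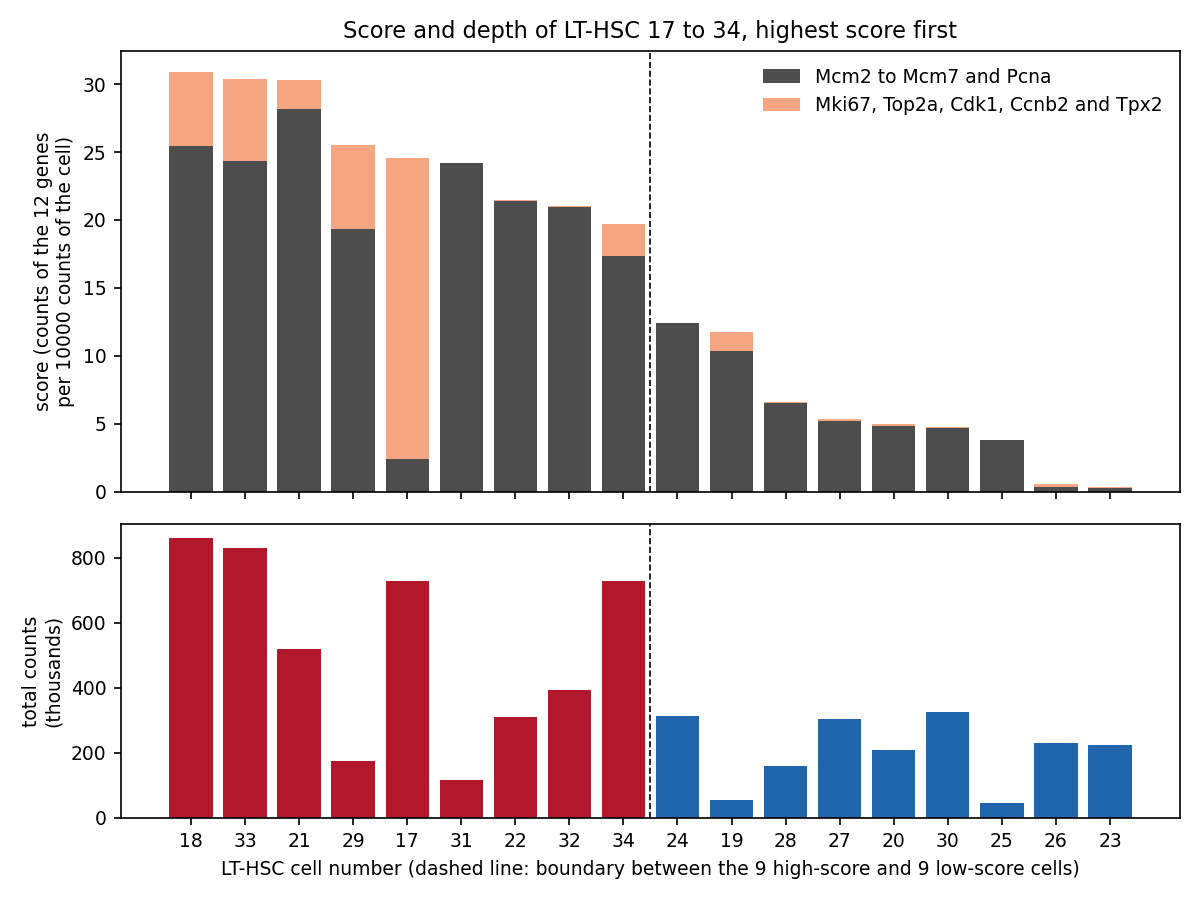
Upper panel: score of each cell in counts of the 12 genes per 10000 counts, split into Mcm2 to Mcm7 with Pcna and the 5 other genes. Lower panel: total counts of the same cells. The dashed line separates the 9 high-score cells (19.7 to 30.9) from the 9 low-score cells (0.315 to 12.45), and LT-HSC 17 is the cell whose score came mostly from the 5 other genes.

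The score was mainly a replication score in both groups. Pcna supplied 20.8% of the score counts of the high-score cells, Mcm6 16.3% and Mcm7 15%, whereas Mki67 supplied 4.76% and Top2a 4.82%. In the low-score cells 61.5% (LT-HSC 26) to 100% (LT-HSC 25) of the score counts came from the MCM genes and Pcna. A large share was thus not particular to the high-score cells. In 8 of the 9 high-score cells this share was at least 75.7%. LT-HSC 17 was the other cell, with 9.89%. It carried 917 counts of Ccnb2 (cyclin B2, a partner of Cdk1 at mitotic entry), 270 of Mki67 and 210 of Top2a, the topoisomerase that untangles sister chromosomes. Mki67, the textbook proliferation antigen, reached 10 counts only in LT-HSC 17 and LT-HSC 33 (301 counts), and stood at 0 to 3 counts in the other 7 high-score cells. Top2a reached 10 counts in LT-HSC 17, 18, 21 and 33. LT-HSC 31, 22 and 32 drew 99.5% or more of their score from the MCM genes and Pcna, with at most 2 counts of Mki67 and none of Top2a. These genes chose the cells, so their counts are no check of the label of cycling cells, and the cells are called by their score here. Scored on Mcm2 to Mcm7 and Pcna alone, 8 of the 9 high-score cells stayed in the upper group, with LT-HSC 24 in place of LT-HSC 17. Scored on the other 5 genes, 6 stayed, and LT-HSC 22, 31 and 32 left it.

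The values of the score genes chose the cells and are given as a description. Mcm6 had 13.7 counts per 1000000 counts of the cell (CPM) in the lowest, 471 in the median and 944 in the highest high-score cell, and 0, 9.53 and 321 in the low-score cells. Pcna had 0, 534 and 934 CPM against 0, 369 and 535, so its ranges overlapped, and 8 cells of each group held it. Mcm4 had 1.37, 55.9 and 146 CPM against 0, 0 and 14.3. Mki67 had 0, 3.49 and 370 CPM against 0, 0 and 8.70. Summed over each group's cells, with 0.5 added to each count, the log2 ratio of high-score over low-score cells was 1.04 for Pcna, 1.11 for Mcm7, 3.02 for Mcm6 and 5.49 for Mcm2. Mcm7 moved to 2.54 without LT-HSC 24 and Mki67 from 5.69 to 4.92 without LT-HSC 33. Of the Ccnb2 counts in high-score cells, 99.1% lay in LT-HSC 17, and without it the log2 ratio was -1.85.

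Several promoters of the score genes, and those of Hells and Cdc20 outside the score, hold letters that match the elements of the replication or the mitotic programme. A few are shown because LT-HSC 17, unlike the other high-score cells, drew little of its score from the MCM genes and Pcna. Other cells, such as LT-HSC 18 and LT-HSC 33, held counts of both parts of the score. The windows come from RefSeq promoters (GRCm38.p6, 250 bases before to 50 after a start site), run 5′ to 3′ along the gene's strand and reach 20 bases beyond the outer motifs, or to the end of the promoter. Capitals mark an E2F-type motif (TTTCCCGC, TTTCGCGC, TTTGCCGC or TTTGGCGC) or the CHR motif TTTGAA, on either strand. In Mcm5 and Mcm6 a pair of E2F matches on opposite strands overlap, and in Cdk1 the first capitals are E2F-type and the later ones CHR.
Mcm6, chr1:128359725-128359835, minus strand: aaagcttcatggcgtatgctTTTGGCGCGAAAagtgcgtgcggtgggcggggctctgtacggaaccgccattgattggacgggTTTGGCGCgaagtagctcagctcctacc
Mcm5, chr8:75109336-75109387, plus strand: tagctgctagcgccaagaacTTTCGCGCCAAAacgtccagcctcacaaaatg
Mcm3, chr1:20820263-20820313, minus strand: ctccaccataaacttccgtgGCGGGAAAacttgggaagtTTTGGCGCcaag
Hells, chr19:38930908-38930955, plus strand: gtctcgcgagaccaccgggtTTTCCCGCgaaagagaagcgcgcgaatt
Cdk1, chr10:69352902-69353063, minus strand: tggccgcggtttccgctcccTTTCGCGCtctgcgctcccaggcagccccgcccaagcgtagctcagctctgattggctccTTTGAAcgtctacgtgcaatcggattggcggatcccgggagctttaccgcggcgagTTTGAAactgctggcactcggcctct
Mki67, chr7:135716452-135716515, minus strand: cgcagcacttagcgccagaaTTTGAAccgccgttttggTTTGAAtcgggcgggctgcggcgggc
Ccnb2, chr9:70421525-70421741, minus strand: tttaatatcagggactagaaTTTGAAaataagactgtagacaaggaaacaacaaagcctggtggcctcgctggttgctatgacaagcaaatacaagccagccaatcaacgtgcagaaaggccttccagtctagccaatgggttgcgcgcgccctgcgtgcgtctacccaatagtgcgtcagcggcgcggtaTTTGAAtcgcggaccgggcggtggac
Cdc20, chr4:118437336-118437381, minus strand: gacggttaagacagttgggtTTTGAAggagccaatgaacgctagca
An E2F-type motif was in 4 of the 6 MCM and Pcna promoters found and in 17 of 45 DNA replication promoters (37.8%). It was in 7 of 72 mitosis promoters (9.72%), in 3 of 33 interferon and MHC promoters (9.09%) and in 1 of 28 nucleotide synthesis promoters (3.57%). Among all genes tested it was in 304 of the 5670 promoters (5.36%), and it was in 2.60% of all 27025 symbols of the table. The CHR motif was in 43 of 72 mitosis promoters (59.7%) and in all 4 found among Mki67, Top2a, Cdk1, Ccnb2 and Tpx2. The Mcm2 promoter held a CHR motif and no E2F-type one, and the Pcna promoter held neither. Mcm4 and Tpx2 had no entry. The CHR motif was in 8 of 45 replication promoters (17.8%), in 14.1% of the genes tested and in 20.2% of all symbols. A match of letters is no evidence of binding.

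Beyond the score genes, 7294 genes had at least 50 counts in the 18 cells. Of these, 2628 (36.0%) were at least 2-fold higher in the summed counts of the high-score cells and 1902 (26.1%) at least 2-fold lower. The median log2 ratio over all of them was 0.19. Single-cell counts are sparse, so these shares are the background for every list below. For genes of at least 20 counts, the minimum used for list members, the shares were 38.1% higher and 27.1% lower of 8289. Restricted to cells of 100000 to 550000 counts, which left 5 high-score and 7 low-score cells whose median depths differed 1.35-fold, 2088 genes were higher and 2496 lower, so the higher share of the calls moved from 58.0% to 45.5%. Without LT-HSC 17, 18 and 33, the deepest cells and also those with the highest mitosis levels, it was 48.8%. That set is not matched for depth, since LT-HSC 34 stayed in it with 726527 counts, beside 729071 in LT-HSC 17. Scaling by median-of-ratios size factors in place of the total moved the median of all genes from 0.19 to 0.0018 on the log2 scale.

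Only 3 of the 7294 genes (0.0411%) had every high-score cell above every low-score cell, and none (0.00%) had every high-score cell below. The 3 genes were Tipin, Ran and Aaas. Tipin, the partner of Timeless that stabilises stalled replication forks, had 247 CPM in the lowest, 327 in the median and 505 in the highest high-score cell, against 0, 4.50 and 19.1 in the low-score cells. It was at 10 counts or more in 9 of 9 high-score and 0 of 9 low-score cells, with 1550 counts against 15 and a log2 ratio of 5.32 (95% counting interval 4.64 to 6.21). Its spread among high-score cells was small, including in LT-HSC 17 and in the cells with no Mki67. Ran, the GTPase of nuclear transport and spindle assembly, had 975, 1718 and 2355 CPM against 31.6, 428 and 910, a ratio of 3.62-fold. Aaas, which encodes the nuclear pore protein aladin, had 35.6, 208 and 432 CPM against a single count in LT-HSC 23. Its 761 counts against 1 gave a log2 ratio of 7.66 (interval 5.77 to 13.55), and without LT-HSC 23 it was at least 89.2-fold higher. Intervals here and below cover counting error only, not the spread between cells. For a gene absent from a group, a fold given as at least sets that group at a floor of 3 counts. Such a fold is no confidence limit, does not cover the spread between cells and can exceed the lower end of the 95% interval.

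DNA replication genes outside the score separated the groups by their summed level. This summed level was 35.2 to 88.1 counts per 10000 in the high-score cells, with a median of 54.2, and 6.88 to 28.5 in the low-score cells, with a median of 16.7. All 9 high-score cells lay above all 9 low-score cells. Of 53 members with 20 counts, 43 were at least 2-fold higher and 2 lower, beside 38.1% and 27.1% of all such genes. Their median log2 ratio was 4.23, or 3.65 with members absent from a group set at the bound that a floor of 3 counts over that group allows. The median was 3.02 in the cells of overlapping depth and 2.54 without LT-HSC 17, 18 and 33.

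Among the polymerase and ligase genes, Lig1, the ligase that joins Okazaki fragments, had 0, 204 and 1067 CPM in the lowest, median and highest high-score cell against 0, 3.09 and 22.2. Its log2 ratio was 6.98. Prim1, the catalytic primase subunit, was present in 9 high-score and 3 low-score cells, with 787 counts against 3 (log2 ratio 6.49, interval 5.16 to 8.99). Both groups overlapped for these genes, since single high-score cells had few or no counts. Hells, a chromatin remodeler of S phase, had 7.62, 96.6 and 873 CPM against 0, 0 and 15.4, and its log2 ratio moved from 5.86 to 7.70 without LT-HSC 30. Among the clamp loader genes, Rfc3 had 97.0, 257 and 366 CPM against 0, 0 and 666, where the highest value came from LT-HSC 25. Its log2 ratio was 2.97, and 3.92 without that cell. Rfc4 had 346 counts in 6 high-score cells and none in the low-score cells, which made it at least 46.1-fold higher, and at least 30.2-fold higher without LT-HSC 18. The origin licensing genes Cdt1 and its inhibitor Gmnn had 562 and 1126 counts against 2 and 12. Their log2 ratios were 6.49 (interval 4.95 to 9.86, 5.51 without LT-HSC 18 and 7.10 without LT-HSC 28) and 5.17. Not every member followed. Pole, the catalytic subunit of polymerase epsilon, had 224 counts against 207, but 98.6% of the latter lay in LT-HSC 23, and its log2 ratio moved from -1.21 to 4.50 without that cell. Uhrf1, which recruits the maintenance methyltransferase, had 124 counts against 197 with a log2 ratio of -1.99, and -0.97 without LT-HSC 27.

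Nucleotide synthesis genes had a summed level of 45.4 to 112 counts per 10000 in high-score cells and 19.4 to 49.8 in low-score cells, and 8 of the 9 high-score cells lay above all low-score cells. Of 31 members, 18 were at least 2-fold higher and 4 lower, with a median log2 ratio of 1.16. It was 1.77 without LT-HSC 27. The deoxynucleotide enzymes led. Tyms, thymidylate synthase, had 17.0, 239 and 443 CPM against 0, 4.76 and 35.6, with a log2 ratio of 5.06 that was 5.82 without LT-HSC 30. Rrm1, the large subunit of ribonucleotide reductase, had 887 counts against 7 (log2 ratio 5.56). Rrm2, its small S phase subunit, had 681 counts against 6 but 53.2% of them in LT-HSC 18, and its log2 ratio was 5.39, or 4.59 without that cell. Dut, which keeps uracil out of DNA, had 152, 941 and 1926 CPM against 12.8, 303 and 764 (log2 ratio 1.73). Rrm2b, the subunit used outside S phase, went the other way with 2 counts against 98, of which 75.5% lay in LT-HSC 20. Its log2 ratio was -6.62 (interval -10.01 to -5.05), and -4.79 without that cell.

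Mitosis genes differed from replication genes in how they were spread. Their summed level had a median of 23.4 counts per 10000 in high-score cells and 9.57 in low-score cells. It was 148 in LT-HSC 17, 64.0 in LT-HSC 33 and 57.8 in LT-HSC 18, and 17.8 to 30.3 in the other 6. The highest low-score cell, LT-HSC 24, stood at 20.1, above LT-HSC 31 and LT-HSC 32, so the groups overlapped. Of 75 members, 68 were at least 2-fold higher and none lower, with a median log2 ratio of 4.84, or 4.09 at the bound. That median rested on a few cells. It was 0.86 without LT-HSC 17, 18 and 33, 1.07 in the cells of overlapping depth, and -0.17 when cells were split on the MCM genes and Pcna, which moved LT-HSC 17 to the low group.

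Ube2c, the ubiquitin carrier of the anaphase-promoting complex, had 1217 counts against 3 (log2 ratio 7.12, interval 5.79 to 9.62), of which 90.4% were in LT-HSC 17, and 3.99 without it. Ccnb1, cyclin B1, had 586 counts against 4 with 76.6% in the same cell, and its log2 ratio of 5.70 became 3.86. Birc5, survivin, had 0, 6.88 and 676 CPM against 0, 6.42 and 35.6, so the median cells were alike and the summed log2 ratio of 4.59 (3.76 without LT-HSC 17) came from 3 cells with 10 counts or more. Nusap1, a spindle microtubule binder, had 506 counts against 0 and was at least 67.4-fold higher, or at least 10.3-fold without LT-HSC 17. Ccna2, the cyclin of S and G2, had 220 counts against 2 with 66.8% in LT-HSC 18, and its log2 ratio moved from 5.14 to 3.85 without it. Cks1b, a Cdk-binding subunit used in both phases, was spread more evenly, with 6.47, 328 and 1009 CPM against 8.70, 23.8 and 157. Its log2 ratio was 2.86, and 3.54 without LT-HSC 24. Bub3, a spindle checkpoint gene, was near level at a log2 ratio of -0.10. Kif23, a cytokinesis kinesin, was at -0.20, but 99.0% of its low-score counts lay in LT-HSC 26, and without that cell it was at 5.72, or at -2.80 without LT-HSC 34.

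**Figure D2:**
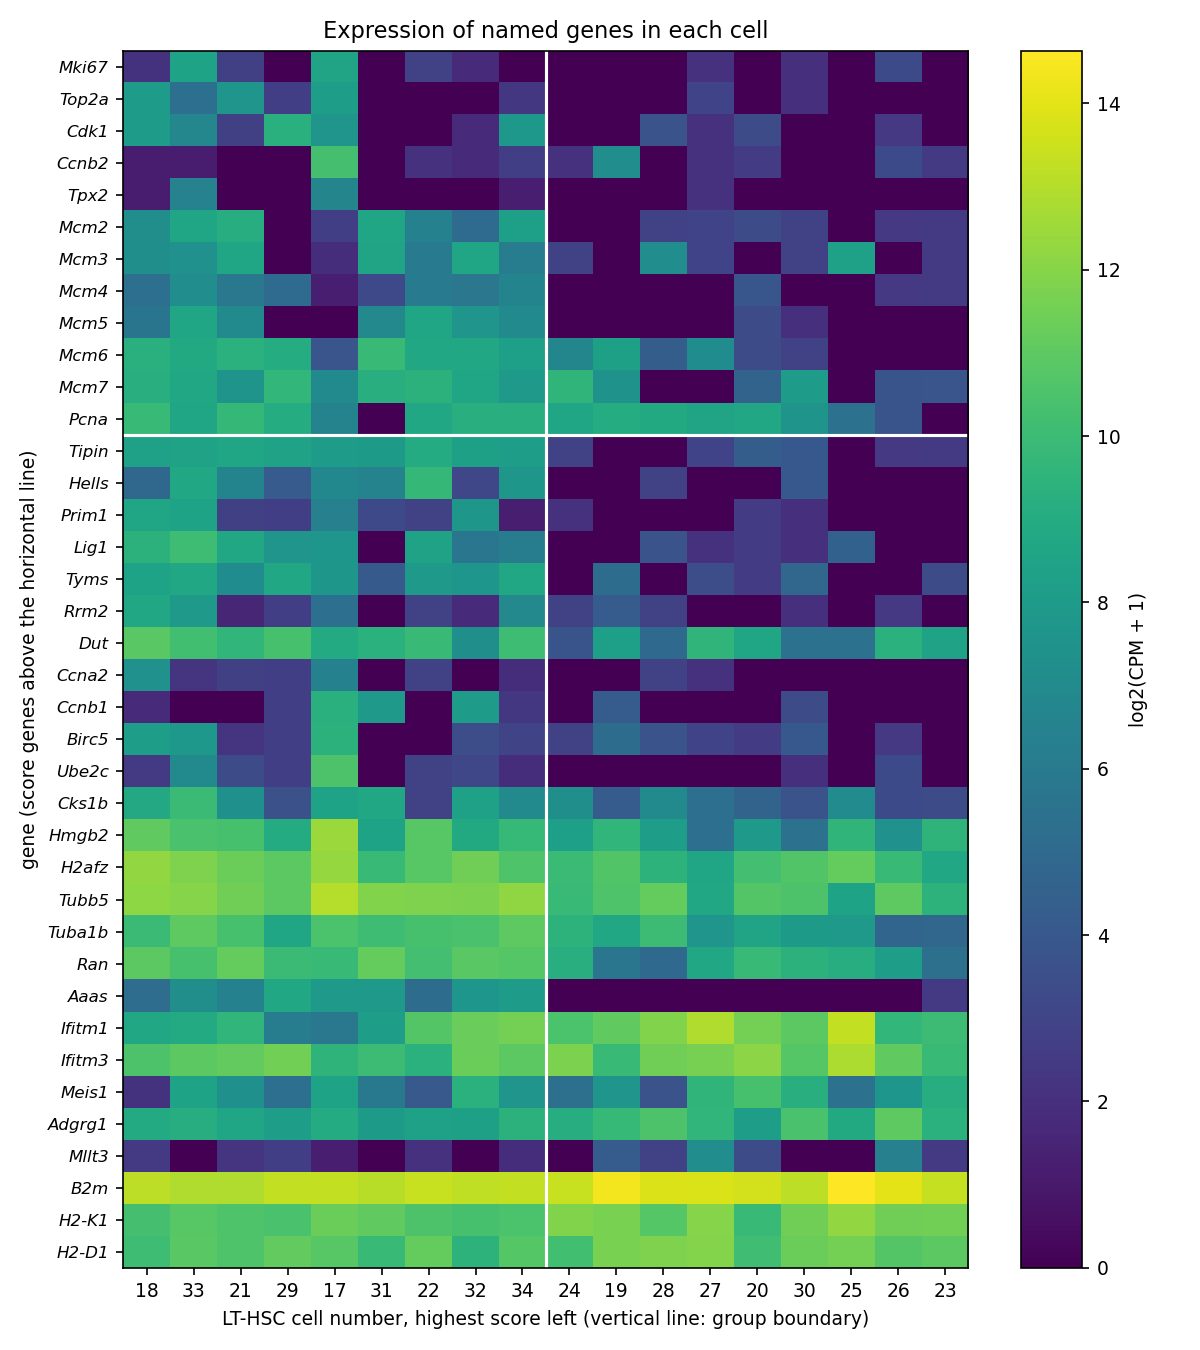
Heat map of log2(CPM + 1) for 38 genes in rows and the 18 cells in columns, ordered from the highest score on the left. The 12 score genes lie above the horizontal line and the vertical line separates the groups. Tipin, Ran and Aaas fill the left side without a gap, whereas Mki67, Ccnb1 and Ube2c are bright in LT-HSC 17 and few other cells.

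Among the abundant genes of the dividing cell, Tubb5, Tuba1b and Stmn1 were held by all 18 cells. Tubulin and stathmin genes summed to 61.1 to 154 counts per 10000 in high-score and 14.97 to 60.4 in low-score cells, with no overlap. Of 9 members, 7 were at least 2-fold higher and 1 lower, and some of the 7 were missing from many cells, such as Tubb2a, which was held by 1 high-score cell only. The median log2 ratio was 1.56, and 0.95 in the cells of overlapping depth. Tubb5, the main beta tubulin of dividing cells, had 1988, 3733 and 8357 CPM against 355, 1470 and 2354, with a log2 ratio of 1.86 (interval 1.80 to 1.92). Only the lower end of the high-score range reached into the low-score range. Tuba1b had 392, 1330 and 2058 CPM against 26.1, 247 and 1048, and Stmn1, which destabilises microtubules, had 1434, 3231 and 4326 against 461, 1406 and 2779. Their log2 ratios were 2.09 and 1.11.

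Histones and chromatin proteins were mixed, with 15 of 33 members at least 2-fold higher and 5 lower, a median log2 ratio of 0.60 and summed levels of 124 to 331 against 66.5 to 240 counts per 10000. The median was 0.048 without LT-HSC 17, 18 and 33. Hmgb2, a DNA-bending protein, had 357, 1350 and 5506 CPM against 39.5, 278 and 784 (log2 ratio 2.91), H2afz, the variant H2A.Z, had 910, 2630 and 5123 against 389, 1008 and 2310 (1.74), and Hmgn2 had 1539, 3022 and 4729 against 429, 1041 and 2834 (1.52). The replacement histone H3f3a was level between the groups at a log2 ratio of -0.005. Hist1h2bc, an H2B gene, went the other way with 31 counts against 727 (log2 ratio -5.85), of which 51.7% lay in LT-HSC 19, and was at -4.85 without that cell and -6.67 without LT-HSC 31. Hist2h2ac, an H2A gene, had no count in the high-score cells and 145 in 1 low-score cell, LT-HSC 24. Replication-dependent histone messages mostly lack a poly(A) tail, and oligo(dT) priming reads them poorly.

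DNA repair genes and the G1 machinery overlapped between the groups in their summed levels. Of 36 repair genes, 28 were at least 2-fold higher and 4 lower, with a median log2 ratio of 2.79, or 2.39 at the bound. Their summed level ran from 3.91 to 21.5 against 1.24 to 11.6 counts per 10000, and 3 high-score cells lay below the low-score median. Ung, which removes uracil from DNA, had 335 counts in 5 high-score cells and none in the low-score cells, at least 44.6-fold higher, and at least 26-fold without LT-HSC 34. Of 19 genes for G1 cyclins, kinases and E2F, 10 were at least 2-fold higher and 2 lower. Cdk4, the G1 kinase, had 370, 863 and 2220 CPM against 112, 329 and 1034 (log2 ratio 1.52). Ccnd2, a cyclin D that partners it, had 1.16, 209 and 687 CPM against 0, 64.8 and 1508, and its log2 ratio of -0.97 became 0.51 without LT-HSC 27. Myc was near level, at a log2 ratio of 0.22, or 0.73 without LT-HSC 24.

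Genes of cycle restraint and quiescence gave no common direction. Of 27 members, 13 were at least 2-fold higher and 5 lower, with a median log2 ratio of 0.60 that was -0.27 without LT-HSC 17, 18 and 33, while the median summed level was 17.1 against 20.2 counts per 10000. Cdkn1b, the inhibitor p27, had 9 counts against 59, of which 84.7% lay in LT-HSC 23, and its log2 ratio of -3.97 was -1.51 without it. Txnip, a brake on glucose uptake, had 28.4, 96.5 and 447 CPM against 13.2, 428 and 1161 (log2 ratio -0.70). The retinoblastoma relative Rbl1, itself an E2F target, had 337 counts against 2 (log2 ratio 5.75, interval 4.21 to 9.12), or 6.23 without LT-HSC 24.

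Stem cell genes were lower in high-score cells. Their summed level was 28.8 to 93.4 counts per 10000 with a median of 70.8, against 87.9 to 254 with a median of 102. All 9 high-score cells lay below the low-score median and 7 lay below every low-score cell. Of 47 members, 8 were at least 2-fold higher and 20 lower, beside 38.1% and 27.1% of all such genes, and the median log2 ratio was -0.68. It ran from -0.87 to -0.35 over all alternatives and from -0.83 to -0.60 with single cells left out. Thinning is among these alternatives and leaves the expected level of a cell unchanged, so it cannot show the part of depth. That part was not tested. Across the 18 cells the level and the score had a Pearson correlation of -0.648 and a Spearman correlation of -0.777, and the level and the total count -0.484 and -0.49.

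Adgrg1, the adhesion receptor GPR56, had 255, 384 and 681 CPM against 286, 777 and 2027, with a log2 ratio of -1.02 (interval -1.11 to -0.93). Its ranges overlapped. Ifitm1 had 56.2, 499 and 3100 CPM against 831, 2174 and 10150, and its log2 ratio of -1.49 was -2.10 without LT-HSC 34. Meis1, a homeobox partner of the Hox proteins, had 3.49, 160 and 655 CPM against 12.6, 209 and 1305 (log2 ratio -1.09). Mllt3, which sustains stem cell self-renewal, had 11 counts against 68, of which 64.7% lay in LT-HSC 27, and its log2 ratio moved from -3.90 to -2.67 without it. Hoxa7 had no count in the high-score cells and 140 in 4 low-score cells, at least 117-fold lower, or at least 38.1-fold without LT-HSC 24. Procr and Esam, markers of the LT-HSC surface, had log2 ratios of -0.50 and 0.019, which were 0.77 without LT-HSC 30 and 0.77 without LT-HSC 28. In the other direction, Fcgrt had 249 counts against 4 (log2 ratio 4.47, 5.86 without LT-HSC 26 and 3.67 without LT-HSC 22). Adgrg1, Ifitm1, Meis1, Mllt3, Procr and Esam were chosen after their values were seen, so they do not stand for the whole list.

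Interferon and MHC genes were also lower, with summed levels of 137 to 172 counts per 10000 against 170 to 446. In this list 8 of the 9 high-score cells lay below every low-score cell. Of 37 members, 5 were at least 2-fold higher and 17 lower, and the median log2 ratio was -0.80. It was -0.27 when cells were split on the MCM genes and Pcna and -0.083 on the other 5 score genes. The class I genes carried most of the counts. B2m, the shared light chain, had 7473, 9686 and 11020 CPM against 9321, 14180 and 25390 (log2 ratio -0.51). H2-K1 had 1292, 1468 and 2570 CPM against 910, 2953 and 4953 (log2 ratio -0.80), and H2-D1 711, 1738 and 2306 against 1119, 2553 and 3899 (-0.54). The class II gene H2-Eb1 had 2 counts against 218 in 4 low-score cells (log2 ratio -7.77, interval -11.15 to -6.22), and was -6.42 without LT-HSC 27 and -8.46 without LT-HSC 29. Ifi203 had a log2 ratio of -2.04, and -3.30 without LT-HSC 17. Ifi27 went the other way, with 9.60, 265 and 574 CPM against 0, 12.6 and 392 (log2 ratio 3.33, or 3.94 without LT-HSC 19).

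**Figure D3:**
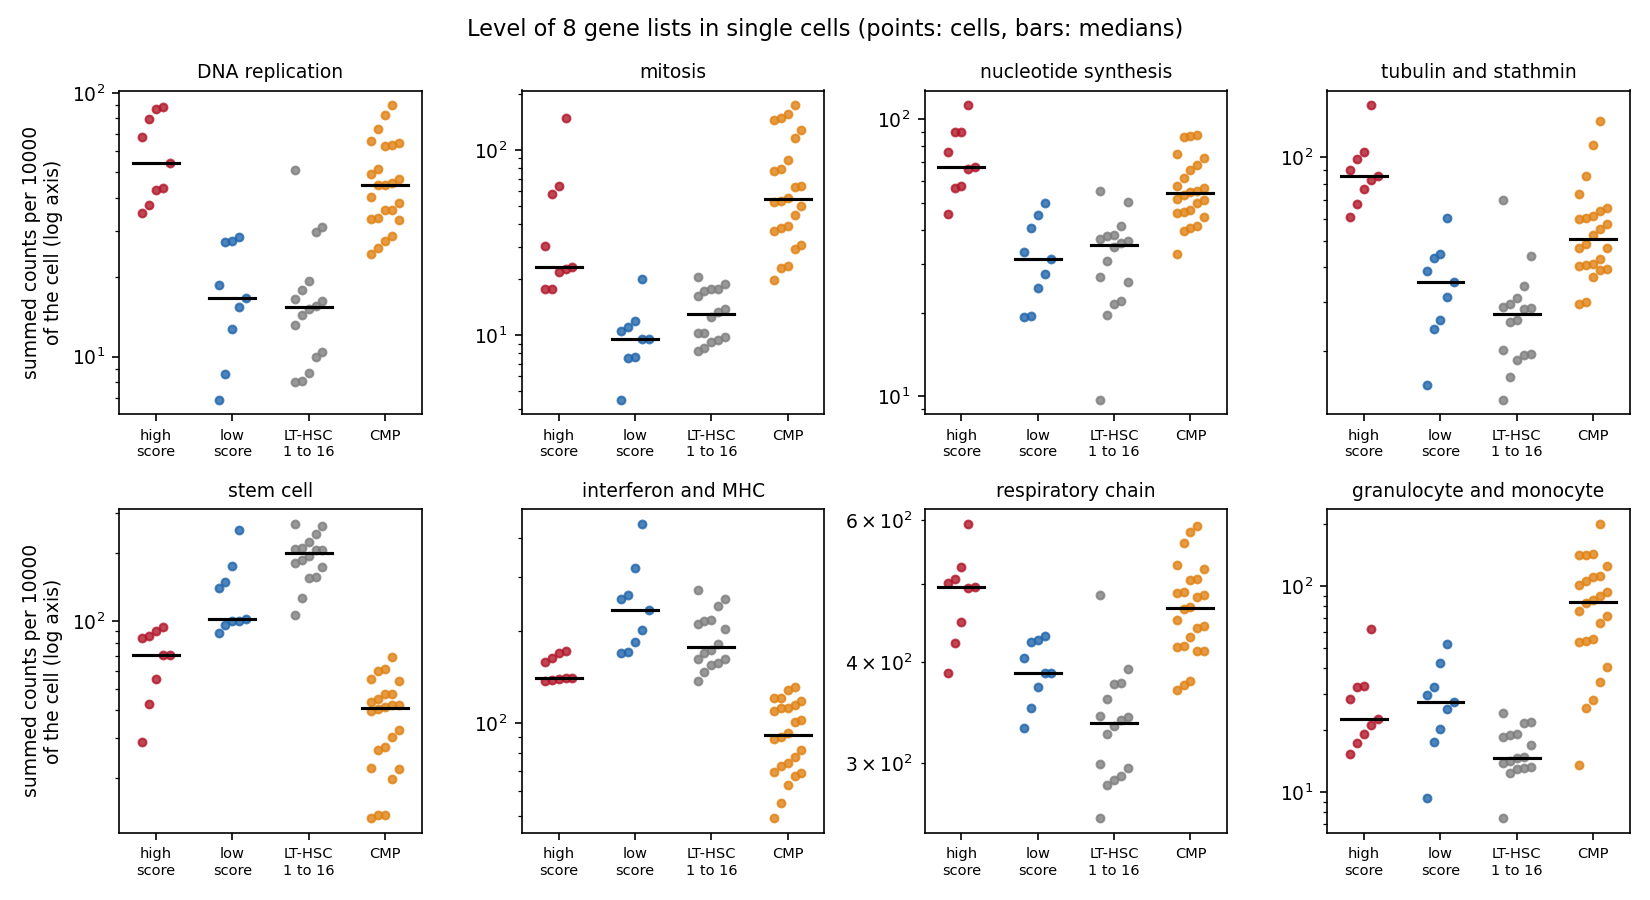
Summed counts of 8 gene lists per 10000 counts of each cell on log axes, in the 9 high-score cells, the 9 low-score cells, LT-HSC 1 to 16 and the 24 CMP. Points are cells and bars are medians. The replication and tubulin levels of the high-score cells lie above all low-score cells, and their stem cell and interferon and MHC levels lie mostly below.

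Energy and protein synthesis genes differed by smaller steps. Respiratory chain genes summed to 388 to 594 counts per 10000 in high-score and 332 to 431 in low-score cells, and 7 high-score cells lay above every low-score cell. Of 76 members, 10 were at least 2-fold higher and none lower, fewer than the shares of all genes, with a median log2 ratio of 0.33. It was 0.15 with median-of-ratios scaling, and 0.15 without LT-HSC 17, 18 and 33. Cycs, cytochrome c, had 173, 858 and 1537 CPM against 9.53, 238 and 889 (log2 ratio 1.41), and Cox6b1 had 506, 1560 and 2154 against 69.4, 690 and 1220 (1.14). Of 81 ribosomal protein genes, none was 2-fold higher and 1 lower, with a median of -0.055. Of 37 proteasome genes, 9 were higher and 3 lower, with a median of 0.28. Glycolysis genes had 3 of 18 higher and 3 lower, and immediate early genes 3 of 14 higher and 5 lower. Ribosome biogenesis genes had a median log2 ratio of -0.17, with 12 of 63 higher and 18 lower, and 0.40 without LT-HSC 30, although their median summed level was 99.0 against 61.4 counts per 10000.

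Lineage genes did not separate the groups. The granulocyte and monocyte list had summed levels of 15.4 to 61.7 against 9.40 to 52.5 counts per 10000 and a median log2 ratio of -0.48, with 7 of 21 members higher and 10 lower. In cells of overlapping depth the median was 0.13. Mpo, the peroxidase of neutrophil granules, had 140 counts against 266 (log2 ratio -2.25), or -3.13 without LT-HSC 31. Prtn3, another granule protease, was held by 9 cells of each group with 303 CPM in the median high-score and 355 in the median low-score cell. In summed counts it was lower in the high-score cells, with 1512 counts against 1210, or 324.5 against 650.2 CPM. Spi1, Tyrobp and Fcer1g of this list were also lower, at log2 ratios of -1.053, -1.655 and -2.169, beside the 7 members that were higher. These genes were chosen after their values were seen. Erythroid genes had a median of 0.0064. Multipotent progenitor genes had a median of -0.58, with 2 of 17 higher and 5 lower, and it was 0.035 without LT-HSC 17, 18 and 33. Megakaryocyte genes had a median of 1.55 over 13 members that was -1.04 without LT-HSC 33 and -0.17 in the cells of overlapping depth, and their summed level went the other way at 5.44 against 8.96 counts per 10000, so no direction is given.

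The ranked genes outside the score were named where at least 5 of the 9 cells of the higher group held them and no cell held over 50% of that group's counts. Such genes numbered 1836 of the 7294, with 1321 higher and 515 lower. The high-score cells were deeper, and the part of depth in passing these criteria was not tested. Among all calls of at least 2-fold the higher share was 58.0%, and 45.5% in the cells of overlapping depth. The 15 highest included 2 list members, the clamp loader Rfc4 and the origin recognition gene Orc2, beside Apitd1, a kinetochore gene that encodes CENP-S, and Supt16, a subunit of the histone chaperone FACT. Supt16 had 515 counts in 6 high-score cells and none in the low-score cells, at least 68.6-fold higher, or at least 50.1-fold without LT-HSC 18. Gmds, an enzyme of GDP-fucose synthesis, had 454 counts in 8 high-score cells and none in the low-score cells, at least 60.4-fold higher, or at least 47.8-fold without LT-HSC 33. Apitd1 had 592 counts against 1 in LT-HSC 28 (log2 ratio 7.30, interval 5.40 to 13.19), and was at least 72.1-fold higher without that cell. The others were Tmem237, Cers5, Fam192a, Med27, Aaas, Stk11, Mtf1, Rars2, Ppp6r1 and Panx1. Of these, Stk11, the kinase LKB1, had 237 counts in 5 high-score cells and none in the low-score cells, at least 31.5-fold higher.

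Of the 15 lowest, 14 are given here, namely Lbp, Csf3r, Hps3, Med13, Arf6, Sharpin, Crot, Pdik1l, Xpo6, Mier1, Bex1, Lamp2, Epb4.1l4b and Krcc1. Lbp, which encodes the lipopolysaccharide-binding protein, had 7 counts in 4 high-score cells against 247 in 6 low-score cells (log2 ratio -6.37, interval -7.80 to -5.40). Csf3r, the receptor for granulocyte colony-stimulating factor, had 7 counts against 121 (log2 ratio -5.34), or -7.42 without LT-HSC 34. Pdik1l was at 10 counts or more in 6 low-score cells and 1 high-score cell, with 0, 1.38 and 94.0 CPM against 0, 216 and 557. Its log2 ratio of -4.66 was -7.48 without LT-HSC 32. In every one of these 14 genes both groups held cells without a count, and none separated the groups.

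**Figure D4:**
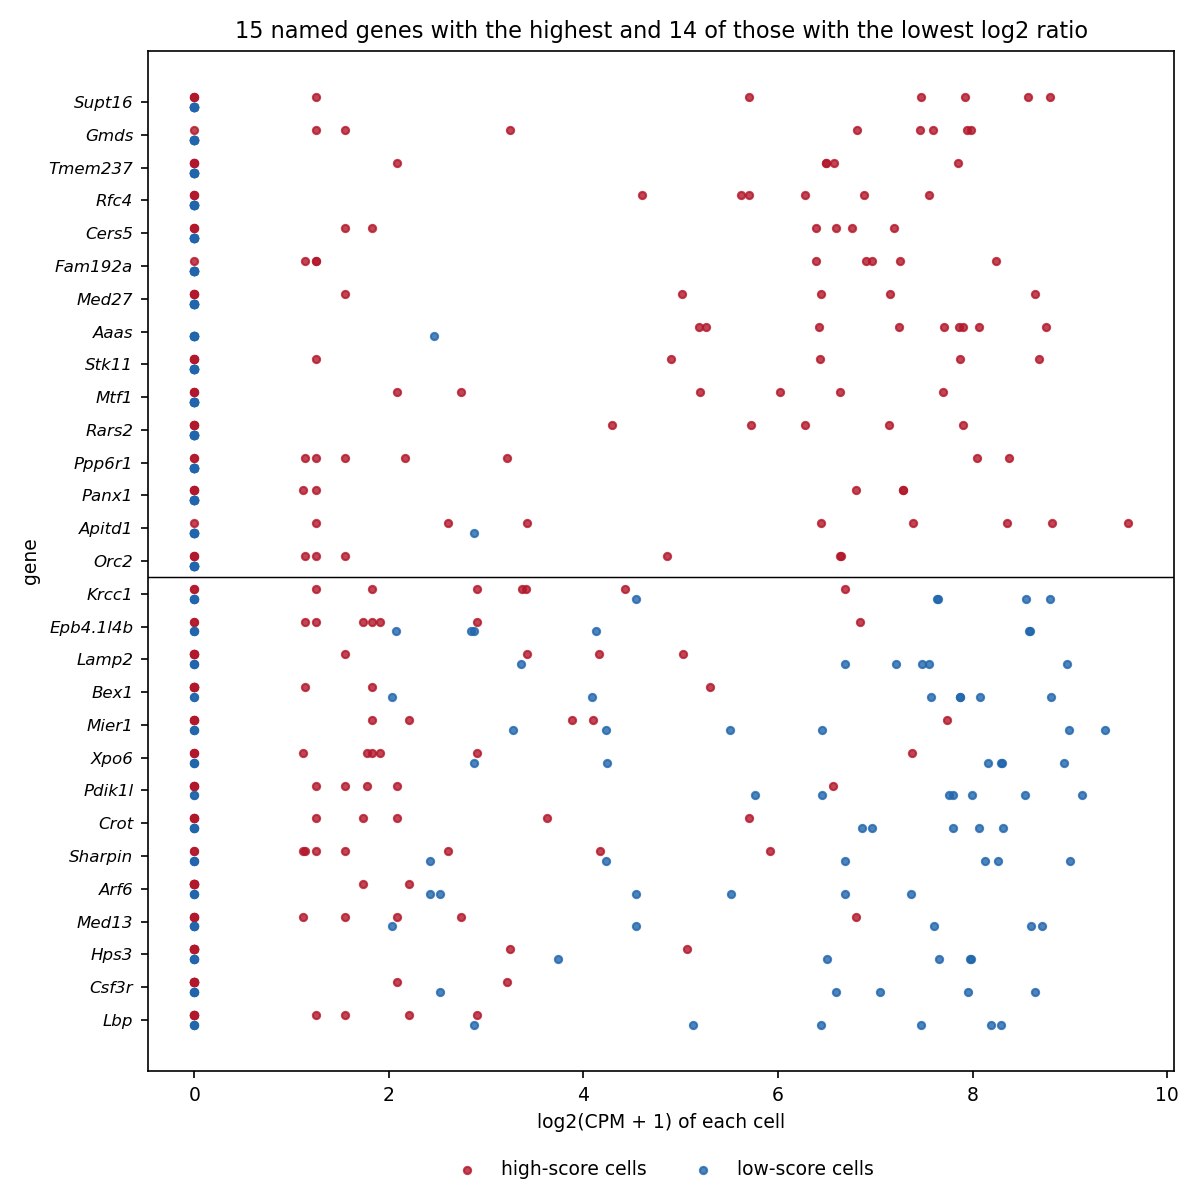
Each point is 1 cell, in log2(CPM + 1), for the 15 named genes with the highest and 14 of the 15 with the lowest log2 ratio. High-score cells are drawn above low-score cells in each row. Only Aaas has all 9 high-score cells to the right of all low-score cells, and every other row has cells of both groups at 0.

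Against the rest of the series, the high-score cells combined levels of both sorted populations. Their median DNA replication level of 54.2 counts per 10000 stood beside 44.8 in the CMP and 15.4 in LT-HSC 1 to 16. Their median mitosis level of 23.4 stood beside 54.1 in the CMP and 12.97 in LT-HSC 1 to 16. Their stem cell level of 70.8 lay between the 40.9 of the CMP, whose highest cell reached 69.2, and the 200 of LT-HSC 1 to 16, whose lowest cell was at 107. The low-score cells, with 102, also lay below LT-HSC 1 to 16. Granulocyte and monocyte genes stood at 22.7 in high-score cells, 27.3 in low-score cells, 84.3 in CMP and 14.8 in LT-HSC 1 to 16. Interferon and MHC genes stood at 141, 234, 91.6 and 177. These are levels of differently sorted or numbered cells with no test.

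The gate was checked at the RNA level. Kit, the receptor on which both populations were sorted, was held by 8 high-score and 5 low-score cells, with 0, 20.6 and 669 CPM against 0, 3.09 and 1321. Of its low-score counts 81.2% lay in LT-HSC 23, and the log2 ratio of -0.84 was 1.38 without that cell and -1.50 without LT-HSC 22. Cd34, against which the LT-HSC were sorted, was held by 9 of 9 cells in each group at 353 and 379 CPM in summed counts, beside 50.7 in LT-HSC 1 to 16 and 206 in CMP. Of the low-score counts 46.9% lay in LT-HSC 24, and the log2 ratio of -0.10 was 0.54 without that cell. Flt3, also excluded by the gate, stood at 34.6 CPM in high-score and 148 in low-score cells, of which 62.7% lay in LT-HSC 24 (log2 ratio -2.10, -0.95 without it and -2.77 without LT-HSC 17), beside 15.3 in LT-HSC 1 to 16. Ly6a, which encodes Sca1, had 0, 2.74 and 204 CPM against 0, 292 and 1155, with a log2 ratio of -1.66, or -2.31 without LT-HSC 34, and stood at 171 in LT-HSC 1 to 16 and 15.2 in CMP. Cd48, absent from the surface of LT-HSC in common schemes, had 2.54, 215 and 881 CPM in high-score cells against 0, 3.09 and 1339 in low-score cells, where 70.3% of the counts lay in LT-HSC 23. Its log2 ratio of -0.041 was 1.52 without that cell, and the level over LT-HSC 1 to 16 was 4.11 CPM and that over CMP 264. Sorted protein and RNA are different measurements, and these values concern RNA only.

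Markers of other cells differed by list, and those of T and NK cells were higher in the median high-score cell. The 9 neutrophil markers summed to 2.21 to 4.57 counts per 10000 in high-score and 2.96 to 6.06 in low-score cells, and S100a8, the most abundant of them, had medians of 135 and 167 CPM. The 8 macrophage markers summed to at most 0.178 in any of the 18 cells. The highest high-score and low-score cells had 2.48 and 5.003 for B cell, 5.28 and 9.85 for dendritic, 1.19 and 3.60 for basophil, mast and eosinophil, 10.4 and 4.89 for endothelial and 0.568 and 4.38 for stromal markers, and each of these lists had cells at 0 in both groups. Egfl7, the most abundant of the endothelial markers, had 735 counts in 7 high-score cells against 77 in 4 low-score cells (log2 ratio 1.92). The endothelial list had no common direction. Of its 4 members with 20 counts, 2 were at least 2-fold higher and 2 lower, with a median log2 ratio of 0.13. The T and NK markers summed to 2.10 to 16.1 in high-score cells with a median of 6.09, and to 0 to 16.9 with a median of 0.099 in low-score cells, of which 7 lay below every high-score cell. Of 9 such markers in the table, Nkg7 alone reached 20 counts. It had 210, 609 and 1613 CPM in high-score cells against 0, 9.88 and 1692 in low-score cells, 2.35 in LT-HSC 1 to 16 and 427 in CMP. Its log2 ratio was 0.49, and 2.04 without LT-HSC 30. Their part in the differences between the groups was not tested. Xist had no count in any LT-HSC, and Y-linked genes had counts in 9 high-score and 8 low-score cells, whereas the CMP held 1200 counts of Xist, so the CMP levels come with a difference in the sex of the cells.

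**Figure D5:**
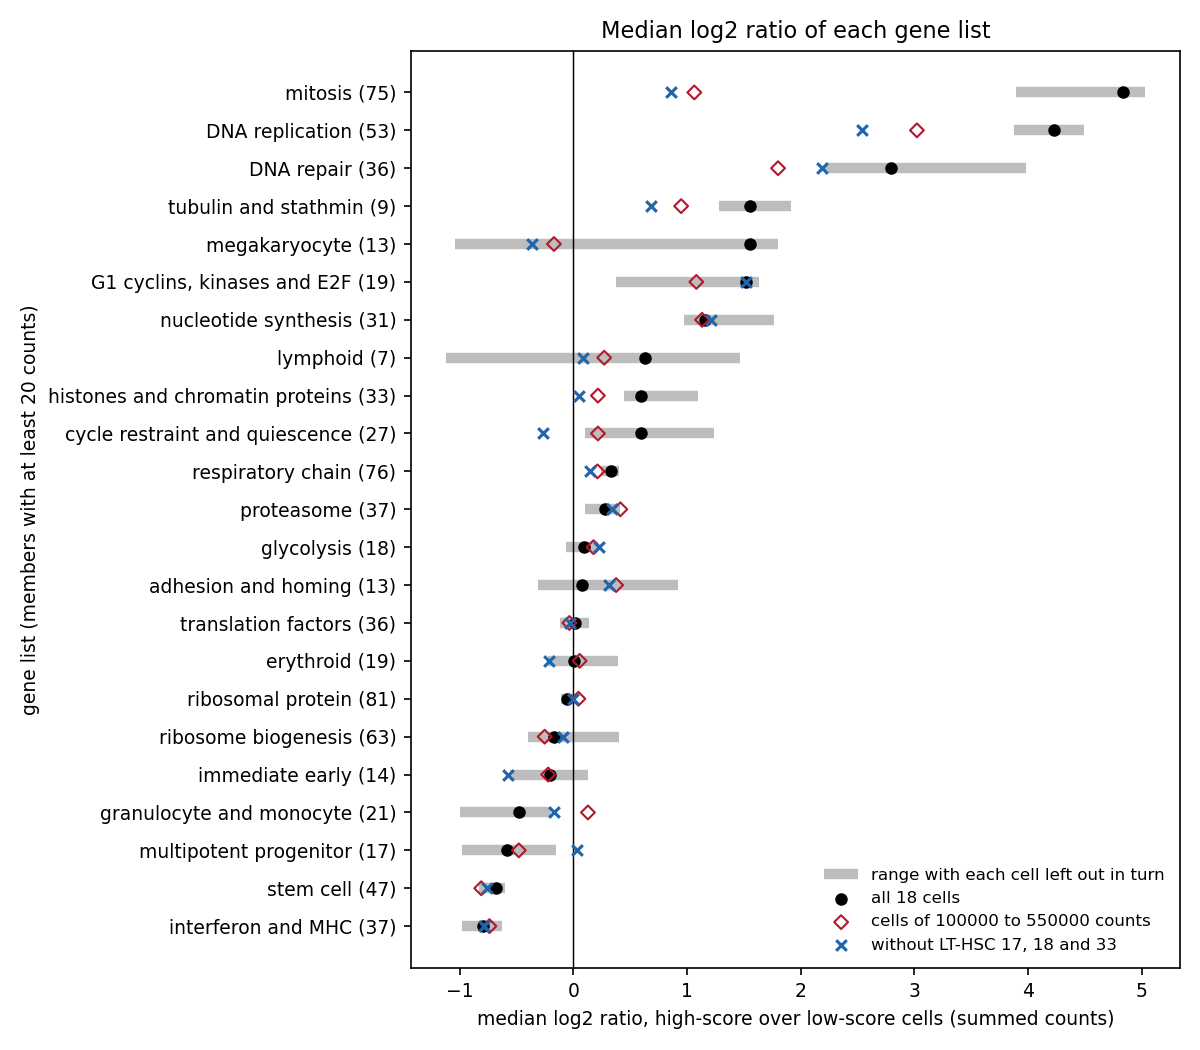
Median log2 ratio of high-score over low-score cells for 23 gene lists, with the number of members of at least 20 counts in brackets. Dots are all 18 cells, grey bars the range with each cell left out in turn, diamonds the cells of 100000 to 550000 counts and crosses the cells other than LT-HSC 17, 18 and 33. Replication stays above 2.5 in all of these, mitosis drops to 0.86, and stem cell and interferon and MHC genes stay below 0. Splits on other scores, where replication fell to 1.15, are not drawn.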

How the data were processed

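Whole-number counts per gene symbol for 58 single cells were deposited by the authors as 1 table. TopHat2 2.0.12, HTSeq and Seurat 2.0 with mm10 are named in the submitters' processing notes, without their roles. Whether the deposited counts are reads or distinct molecules is not given in the sources used here. Counts were divided by each cell's total of all genes. Cells were split by the score and summed per group, and log2 ratios were formed with 0.5 added to each count. Intervals are exact conditional binomial at 95%, and too narrow if the counts are reads. Analysis used Python 3.11.15, numpy 2.4.6, pandas 2.3.3 and scipy 1.17.1, and the calculation was tested on simulated data. Thinning drew counts without replacement.

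The cells and gene lists were chosen with earlier results of these data known. Named genes needed 50 counts in the 18 cells, 5 cells of the higher group, no cell over 50% of that group's counts and 1 direction in summed, mean and median CPM. The 15 highest and 15 lowest were kept, without sex-linked, mitochondrially encoded, ribosomal protein, Rn45s and predicted genes. One of the lowest is not reported here. Score and gate genes and up to 4 members of each list were added. Further genes in the text, such as Tipin, Ran, Tubb5, Adgrg1 and B2m, were chosen after their values were seen. Alternatives were other scores, scalings, minimum counts, thinning and leaving out cells. The cells of overlapping depth and the set without LT-HSC 17, 18 and 33 were chosen after seeing the data. Promoters were matched by symbol, 5670 of the 7294 genes.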

Additional observations from a re-analysis of the deposited data

Results flagged for a closer look

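Over 25 measures in both groups of 9 cells, 50 groups were checked for a cell whose gap to the nearest other cell was above Dixon's 95% critical share of the group's range, and 5 had one. Chance flags about 1 in 20 groups. LT-HSC 17 stood apart among the high-score cells in 3 related lists. Its mitosis level was 148.4 counts per 10000 beside 64.02 in the next cell, its tubulin and stathmin level 154.4 beside 104.3, and its histone and chromatin protein level 331.4 beside 219.8. LT-HSC 31 had a granulocyte and monocyte level of 61.73 beside 32.78 in the next high-score cell. It also held 98.7% of the Ctsg counts of that group and the lowest stem cell level, 28.8. Among the low-score cells LT-HSC 24, the cell nearest the boundary, had a mitosis level of 20.09 beside 11.99.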

How the results depend on the processing

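No paired analysis was possible because the replicate numbers only number single cells and pair nothing across the groups. Of 2920 recomputed values, 2845 moved by less than the spread between cells, or for counts of genes by less than 1.5-fold. Another 68 moved more and 7 reversed. Single genes gave 2120 of the values, 2091 of them with the smaller move, and were not recomputed under the other scores. Of 736 list values, 693 had the smaller move. Only ratios of at least 2-fold could be called reversed, so smaller ones that changed sign, such as those of Kif23 and Kit, are not among the 7. No count was found in the low-score cells for 606 tested genes and in the high-score cells for 149, where only a bound can be given, and the part of depth in this was not tested. With a minimum of 200 counts, 1083 genes were higher and 810 lower, and with a minimum of 1 count 3147 were lower. Split on the MCM genes and Pcna, the list medians were 1.73 for replication, -0.17 for mitosis, 0.32 for tubulin, -0.22 for histones, 0.50 for glycolysis, 0.13 for respiratory chain, 0.39 for immediate early and -0.27 for interferon and MHC genes. Split on the other 5 score genes, they were 1.15 for replication, 0.66 for nucleotide, 3.86 for mitosis, 0.995 for tubulin, -3.92 for lymphoid, -0.29 for glycolysis and -0.083 for interferon and MHC genes. With the mean of the cells' CPM, replication was 3.14 and mitosis 3.31. Without LT-HSC 17, 18 and 33 the medians were 2.54 for replication, 0.86 for mitosis, 0.69 for tubulin, 0.048 for histones, -0.27 for restraint, -0.37 for megakaryocyte and 0.15 for respiratory chain genes. In the cells of 100000 to 550000 counts they were 3.02 for replication, 1.07 for mitosis, 0.95 for tubulin and -0.17 for megakaryocyte genes. Median-of-ratios scaling gave -0.24 for ribosomal protein, -0.17 for translation and 0.15 for respiratory chain genes. The 6 highest against the 6 lowest gave 0.53 for immediate early genes, and other minimum counts gave 0.26 for G1 genes (minimum 1) and -0.52 (minimum 100) and -0.48 (minimum 1) for megakaryocyte genes. With each cell left out in turn, medians ran from 0.98 to 1.77 for nucleotide, 3.90 to 5.03 for mitosis, 0.44 to 1.10 for histones, 2.22 to 3.98 for repair, 0.38 to 1.63 for G1, -1.04 to 1.80 for megakaryocyte and -0.40 to 0.40 for ribosome biogenesis genes, and for Pole from -1.61 to 4.50, the latter without LT-HSC 23. The causes of these moves were not tested.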
